A study of Homo sapiens with 8 samples.

Results

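The 32 genes described here belong to the unfolded protein response and to the programme of the transcription factor ATF4. They were chosen as a list of symbols and all 32 were found among the 34415 gene symbols measured. RNA was sequenced from HaCaT cells, an immortalized line of human epidermal keratinocytes, grown as 8 cultures that the submitters describe as independent biological replicates from passages 21 to 33. All 8 cultures had been kept in RPMI-1640 medium with 5.5 mM glucose and then received 35 mM glucose for 96 h. In 4 of them a small interfering RNA (siRNA) against ETV4, an ETS family transcription factor, was transfected for 48 h (siETV4), and in the other 4 a negative-control siRNA (siNC). The comparison therefore asked what lowering ETV4 did to these genes within high glucose. Since every library came from high glucose, it gives no value for the effect of glucose itself. The results describe a single cell line and a single siETV4 group, whose siRNA sequence the sources used here do not give.

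Proteins that enter the endoplasmic reticulum (ER) are folded there by chaperones, and misfolded ones are sent back to the cytosol for destruction, which is called ER-associated degradation. When unfolded proteins accumulate, the sensors IRE1 (gene ERN1), ATF6 and PERK (gene EIF2AK3) in the ER membrane start the unfolded protein response: IRE1 splices the XBP1 messenger RNA, ATF6 is cut to release a transcription factor, and PERK phosphorylates the initiation factor eIF2 alpha. Phosphorylated eIF2 alpha slows most translation and favours that of ATF4, which acts on genes of amino acid uptake and synthesis and on CHOP (gene DDIT3), and kinases that sense other stresses feed into ATF4 in the same way. Keratinocytes use these pathways during differentiation and under nutrient stress. Splicing of XBP1, cleavage of ATF6 and phosphorylation of PERK are not visible in counts per gene, so only the messenger RNA levels are described.

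The genes were grouped by role: 4 genes of the sensors and XBP1, 7 genes of ATF4, CHOP and their feedback, 8 ATF4 targets of amino acid uptake and synthesis, 10 ER chaperones and folding helpers, and 3 genes of ER-associated degradation. The grouping names sensors, amino acid genes, chaperones and degradation as given with the list, and the ATF4 and CHOP group was split off for this description.

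Promoters of the list were read to see whether the classic response elements were present. The sequences are RefSeq's (GRCh38.p14), from 250 bases before to 50 bases after each annotated start, and 30 of the 32 symbols matched. SHMT2 and PSPH did not. Both strands were searched. The ER stress response element, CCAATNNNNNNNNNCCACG, which ATF6 binds together with the factor NF-Y, was found in 6 of the 30 members: HSPA5, HSP90B1, CALR, CANX and PDIA6, which are 5 of the 10 chaperones, and XBP1. Among all 27305 symbols with a promoter in the table, 25 held it, a share of 0.0916%. The shorter element II, ATTGGNCCACG, was found in HYOU1, SDF2L1 and HERPUD1, which is 3 of the 30, against 0.0696% of all symbols. HYOU1 also held TGACGTGG, the core of an XBP1 site, found in 0.927% of all symbols, and that match overlapped one of its element II matches. The core shared by C/EBP-ATF response elements, TGATGNAA, which ATF4 and CHOP bind as dimers with C/EBP proteins, was found in ATF3, CHAC1, ASNS, SLC3A2 and HERPUD1, which is 5 of the 30, against 4.46% of all symbols. Such elements were first defined in promoters of genes of this kind, so their presence is a description and not evidence of activity. The stretches below carry matches in 8 of these genes, examples of each motif, with the fixed bases of each match in capitals on the strand of the gene. MTHFD2, which had the smallest p of the list, is shown for comparison: none of the 4 motifs was found in its window. The stretches lie at chr9:125241384-125241463 (reverse strand), chr12:103930210-103930349 (forward strand), chr19:12938369-12938448 (forward strand), chr22:28800595-28800674 (reverse strand), chr11:119057266-119057405 (reverse strand), chr16:56931957-56932046 (forward strand), chr15:40953231-40953310 (forward strand), chr7:97872449-97872528 (reverse strand) and chr2:74198515-74198614 (forward strand), in the order printed.
HSPA5: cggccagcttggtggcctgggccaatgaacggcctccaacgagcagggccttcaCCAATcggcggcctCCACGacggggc
HSP90B1: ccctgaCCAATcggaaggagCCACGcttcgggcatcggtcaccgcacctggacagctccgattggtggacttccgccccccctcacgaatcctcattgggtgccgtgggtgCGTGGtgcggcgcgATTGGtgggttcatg
CALR: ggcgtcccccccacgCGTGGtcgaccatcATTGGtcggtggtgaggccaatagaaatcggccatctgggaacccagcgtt
XBP1: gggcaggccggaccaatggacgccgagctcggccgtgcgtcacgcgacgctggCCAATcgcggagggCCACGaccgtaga
HYOU1: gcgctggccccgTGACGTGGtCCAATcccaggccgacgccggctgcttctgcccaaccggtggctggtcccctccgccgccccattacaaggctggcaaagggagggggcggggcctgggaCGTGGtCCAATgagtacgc
HERPUD1: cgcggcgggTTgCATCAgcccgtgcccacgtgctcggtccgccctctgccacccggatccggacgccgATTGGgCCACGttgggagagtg
CHAC1: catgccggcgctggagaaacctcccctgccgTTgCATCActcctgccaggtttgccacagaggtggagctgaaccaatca
ASNS: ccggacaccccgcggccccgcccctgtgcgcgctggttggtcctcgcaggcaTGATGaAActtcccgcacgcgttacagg
MTHFD2: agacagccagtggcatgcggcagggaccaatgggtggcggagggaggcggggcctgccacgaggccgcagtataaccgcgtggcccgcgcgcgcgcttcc

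Library totals ran from 35057643 to 41657753 counts, and 13572 genes passed the filter on low counts, including all 32 members. ETV4 stood at 3.10, 2.71, 1.83 and 2.80 CPM (counts scaled to a common library size with TMM factors) in siETV4 replicates 1 to 4 and at 32.01, 29.7, 31.1 and 19.8 CPM in siNC replicates 1 to 4. The log2 fold change was -3.43 (SE 0.21), and the adjusted p was 4.64e-05 (edgeR's quasi-likelihood test, adjusted by Benjamini-Hochberg over all genes tested). All 6 keratinocyte markers listed were detected at 1 CPM or more, and their summed level was 2750 to 2970 CPM in siETV4 and 2810 to 3210 CPM in siNC. Summed markers of fibroblasts (3.42 to 6.44 CPM over all libraries), melanocytes (4.25 to 8.95 CPM), leukocytes (0.193 to 0.856 CPM) and endothelium (14.0 to 21.9 CPM) were far lower. In total RNA from a culture, a lower share of cells expressing a gene and less RNA per cell cannot be told apart. The libraries also differed, both within and between the groups, in that the deviation of genes from their means went with the GC content of the transcript. Spearman's rho across 12758 genes was -0.64, 0.20, -0.57 and 0.02 in siETV4 replicates 1 to 4 and 0.55, 0.52, 0.63 and -0.60 in siNC replicates 1 to 4, so siNC replicate 4 stood with siETV4 replicates 1 and 3. For this reason, values without siNC replicate 4, and values from a fit in which each library's trend with GC content and length was removed (called GC-adjusted below), are given beside the members they touch. Leaving out siNC replicate 4 does not remove the trend. The siNC libraries then left all have a rho of 0.52 to 0.63, and siETV4 replicates 1 and 3 stay in. In that comparison the siRNA and the GC trend cannot be told apart. The GC-adjusted fit sets the trends without regard to the siRNA, so it also removes any siRNA difference that goes with GC content or length.

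No member was called, that is, had an adjusted p under 0.05, in all 8 libraries by the edgeR test, where 0.236% of all genes tested did. At an unadjusted p under 0.05 there were 5 members of 32 (15.6%), and 12.6% of all genes tested. The smallest adjusted p was 0.101, for MTHFD2. DESeq2 called 1 member, MTHFD2, as higher in siETV4 and 0 as lower, where it called 0.884% of all genes higher and 0.759% lower. The log2 fold changes ran from -0.17 to 0.65, 18 above 0 and 14 below, where 48.4% of all genes tested were above 0. The members' median was 0.02, beside -0.01 for all genes tested. In 3 members, MTHFD2, CHAC1 and PSAT1, all 4 siETV4 libraries lay above all 4 siNC libraries, which holds for 2.62% of all genes tested, and in 0 members all lay below, which holds for 3.93%. With the GC-adjusted fit 2 members, MTHFD2 and CHAC1, were called higher by edgeR (0.643% of genes were), and 0 were called lower (0.784% of genes were). That fit moved the median to 0.08, beside a median of 0.00 for all genes. In it 26 of 32 members were above 0, where 51.0% of all genes were. Without siNC replicate 4, 10 members were called higher by edgeR, in a comparison where 12.0% of all genes were, and 0 were called lower, where 4.88% of all genes were. With that library left out of the GC-adjusted fit, edgeR called 5 members higher (CANX, CHAC1, DNAJB9, EIF2AK3 and MTHFD2), beside 3.78% of all genes, and 1 lower (XBP1), beside 2.81%.

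**Figure D1:**
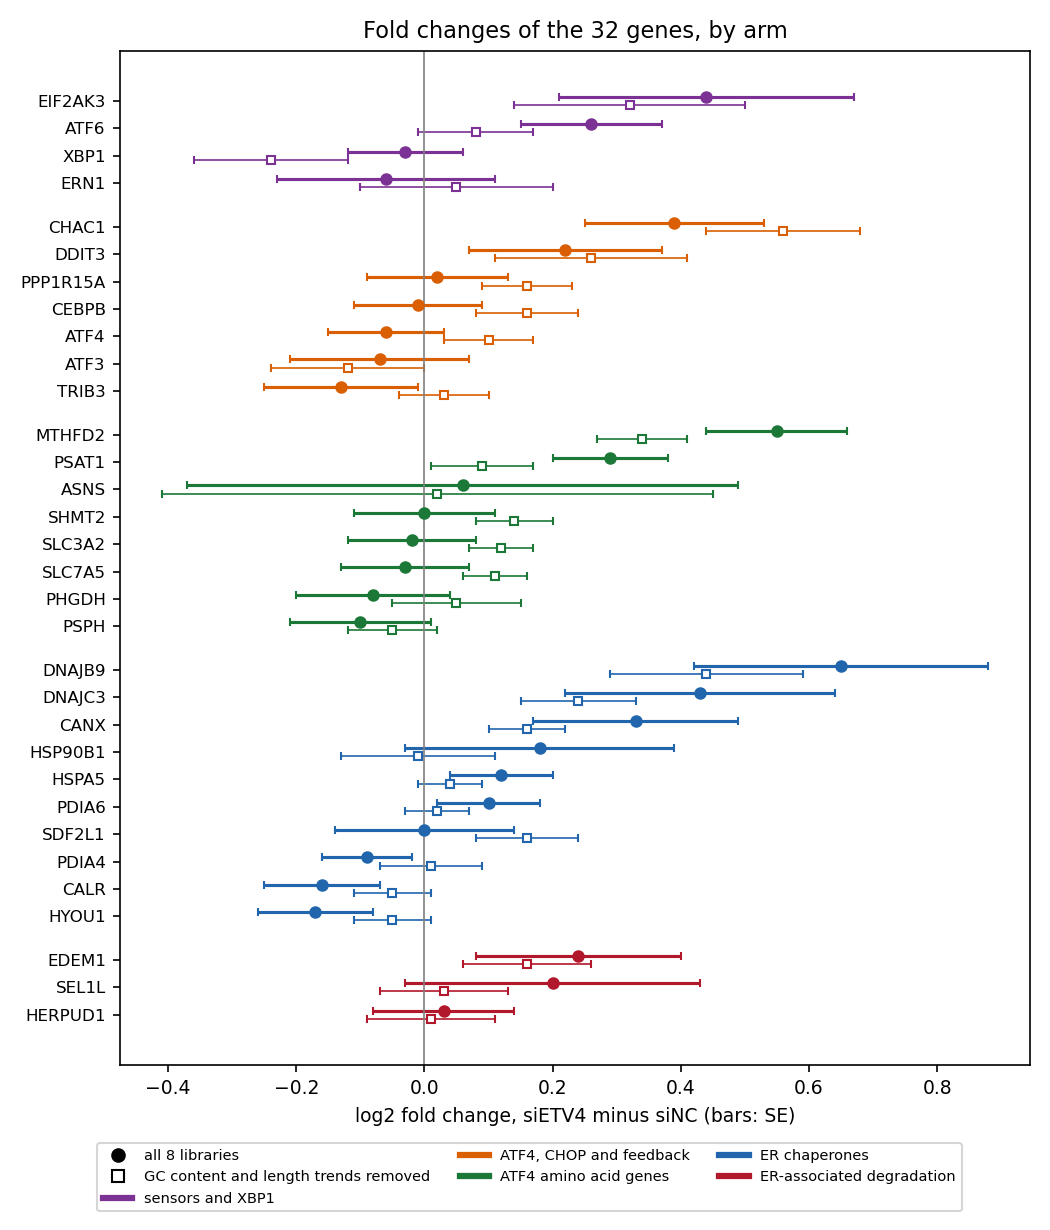
Log2 fold change (siETV4 minus siNC, x axis) of the 32 genes by role, with bars of 1 SE; filled circles come from all 8 libraries and open squares from the fit with GC content and length trends removed. DNAJB9 (0.65) and MTHFD2 (0.55) lie farthest to the right in all 8 libraries, and CHAC1 (0.56) and DNAJB9 (0.44) in the GC-adjusted fit, while HYOU1 (-0.17) lies farthest to the left before and XBP1 (-0.24) after.

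In control cells the list spanned more than 3 decades of FPKM, the count scaled by gene length and library total, which allows levels of different genes to be compared. SLC7A5, the light chain of the large neutral amino acid transporter LAT1, stood highest at 916 FPKM (siNC libraries from 827 to 999) and ranked 79 among all symbols. SLC3A2, the heavy chain of the same transporter, followed at 617 FPKM (544 to 675). The calcium-binding chaperone CALR (calreticulin) stood at 505 FPKM (476 to 538) and the chaperone HSPA5 (BiP), which holds the sensors inactive, at 228 FPKM (219 to 249). PSAT1, an enzyme of serine synthesis, stood at 216 FPKM (205 to 230), and its range overlapped that of HSPA5, so their order is within the spread. The transcription factors CEBPB (55.4 FPKM, 48.1 to 60.2) and ATF4 (54.2 FPKM, 47.8 to 59.9) likewise overlapped. At the low end EIF2AK3 stood at 1.63 FPKM (1.24 to 2.60), CHAC1 at 1.03 FPKM (0.930 to 1.12), ERN1 at 0.577 FPKM (0.503 to 0.656) and ASNS at 0.156 FPKM (0.0767 to 0.252). ASNS encodes asparagine synthetase, a standard ATF4 target. Its low value is uncertain, because the gene (chr7:97851677-97928441) shares its span with the read-through gene CZ1P-ASNS (chr7:97852117-97972358), which was counted under its own symbol at 3.39 to 5.02 CPM, against 0.242 to 0.830 CPM for ASNS. The sources used here do not say how reads common to both were assigned.

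**Figure D2:**
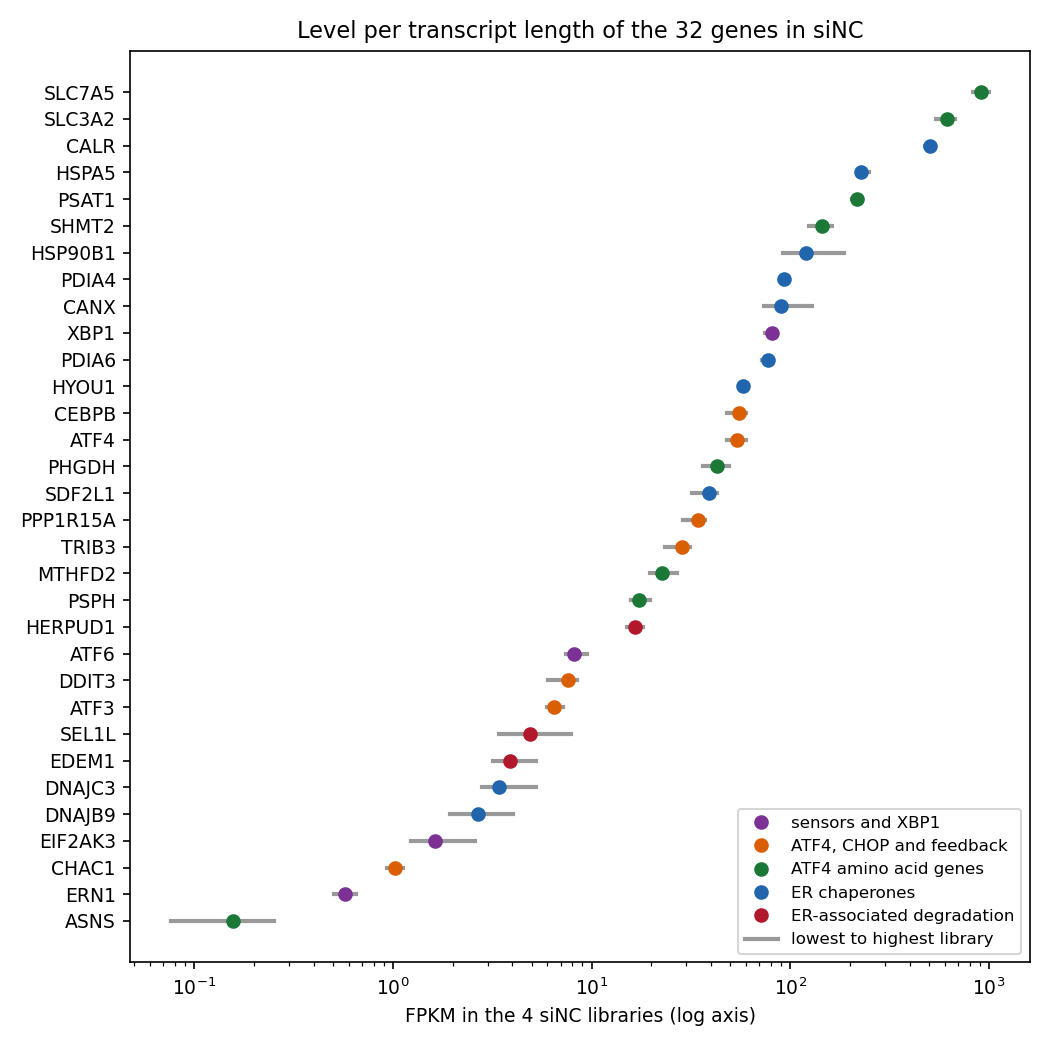
Level of the 32 genes in the 4 siNC libraries, in FPKM on a log axis, ordered by mean; points are means, coloured by role, and grey lines run from the lowest to the highest library. SLC7A5, SLC3A2 and CALR lie above 500 FPKM, and CHAC1 at 1.03, ERN1 at 0.577 and ASNS at 0.156 FPKM stand lowest.

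Of the sensors, the messenger RNAs of PERK and ATF6 were higher on average in siETV4 and those of IRE1 and XBP1 differed little, with none past the threshold in all 8 libraries. EIF2AK3, the PERK kinase (chr2:88556741-88628145), stood at 11.6, 8.35, 13.1 and 10.9 CPM in siETV4 replicates 1 to 4 and at 6.61, 7.02, 6.27 and 12.5 CPM in siNC replicates 1 to 4. Replicate 4 of siNC stood among the siETV4 libraries and the other 3 below all of them. The means of 11.0 ± 1.98 CPM and 8.09 ± 2.94 CPM (SD, n = 4 each) correspond to a log2 fold change of 0.44, with SE 0.23 and edgeR adjusted p 0.45. Without siNC replicate 4 it was called higher (log2 fold change 0.73, edgeR adjusted p 0.0161), and the GC-adjusted value was 0.32 (edgeR adjusted p 0.414). ATF6 (chr1:161766320-161964070), the sensor that is itself a membrane-bound transcription factor, stood at 78.5, 68.7, 88.8 and 75.1 CPM in siETV4 and at 59.9, 62.3, 64.6 and 73.3 CPM in siNC, in order of replicate number. The groups overlapped only through siETV4 replicate 2 and siNC replicate 4. With means of 77.8 ± 8.41 CPM and 65.0 ± 5.84 CPM (SD, n = 4 each), the log2 fold change was 0.26 (SE 0.11, edgeR adjusted p 0.376). It was called without siNC replicate 4 (0.32, edgeR adjusted p 0.0443), while its GC-adjusted log2 fold change was 0.08 (edgeR adjusted p 0.758). XBP1 (chr22:28794560-28800569), whose spliced form is the factor that IRE1 activates, stood at 149, 165, 152 and 156 CPM in siETV4 and at 163, 166, 164.5 and 140.3 CPM in siNC. Here siNC replicate 4 was the lowest library and the other 3 siNC libraries lay close to the highest siETV4 library. The log2 fold change was -0.03 (SE 0.09, edgeR adjusted p 0.903), from means of 155 ± 6.78 CPM and 158 ± 12.1 CPM (SD, n = 4 each). Its GC-adjusted value was -0.24 (SE 0.12, edgeR adjusted p 0.342), and the GC-adjusted fit without siNC replicate 4 called it lower (log2 fold change -0.36, edgeR adjusted p 0.018). ERN1, the IRE1 sensor and nuclease, averaged 6.12 ± 1.22 CPM in siETV4 and 6.38 ± 0.557 CPM in siNC, a log2 fold change of -0.06 (SE 0.17).

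In the ATF4 and CHOP group, CHAC1 was higher in every siETV4 library than in any siNC library, and the factors themselves showed no such separation. CHAC1 (chr15:40953471-40956512) encodes a glutathione-degrading enzyme that ATF4 and CHOP induce, and its promoter stretch above holds a C/EBP-ATF core. It stood at 9.13, 8.69, 7.94 and 7.84 CPM in siETV4 and at 6.93, 6.51, 6.62 and 5.52 CPM in siNC. Replicate 4 was the lowest library of each group, and the lowest siETV4 library lay above the highest siNC library. Means were 8.40 ± 0.618 CPM and 6.40 ± 0.608 CPM (SD, n = 4 each), and the log2 fold change was 0.39 (SE 0.14, edgeR adjusted p 0.317). The gene is rich in GC (62.6%), and in the GC-adjusted fit its log2 fold change was 0.56 (SE 0.12) with an edgeR adjusted p of 0.0422, which passed the threshold. DESeq2 gave an adjusted p of 0.135 and the fit without siNC replicate 4 an edgeR adjusted p of 0.117, neither past the threshold. DDIT3 (chr12:57516588-57520517), the pro-apoptotic factor CHOP, stood at 11.4, 9.51, 11.5 and 10.3 CPM in siETV4 and at 7.20, 10.4, 9.59 and 9.40 CPM in siNC. Replicate 1 of siNC was the lowest of the 8 libraries, siNC replicates 2 and 3 lay within the siETV4 range, and siNC replicate 4 lay just under it. The means of 10.7 ± 0.942 CPM and 9.14 ± 1.36 CPM (SD, n = 4 each) correspond to a log2 fold change of 0.22, with SE 0.15 and edgeR adjusted p 0.535. GENCODE v29 lets DDIT3 overlap MBD6 on the opposite strand, which was counted at a mean of 50.3 CPM against 9.92 CPM for DDIT3. In RefSeq its other end overlaps that of MARS1 (chr12:57488068-57516652), counted at means of 264 ± 12.1 and 245 ± 23.8 CPM (SD, n = 4 each). The stretch shared with MARS1 is short (chr12:57516588-57516652), and in RefSeq MBD6 starts at 57520715, outside DDIT3. Whether the counting used strand is not stated in the sources at hand. Without it, reads within the stretch that such a pair shares cannot be told apart.

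The transcription factors of this group, apart from CHOP, had fold changes near 0. ATF4 (chr22:39520559-39522686) stood at 399.6, 412, 407 and 412 CPM in siETV4 and at 419, 481, 442 and 360.1 CPM in siNC, and the siETV4 libraries lay inside the siNC range. With means of 408 ± 5.99 CPM and 426 ± 50.7 CPM (SD, n = 4 each), the log2 fold change was -0.06 (SE 0.09, edgeR adjusted p 0.791). Its sign depended on the scaling, since the GC-adjusted value was 0.10 (edgeR adjusted p 0.557). ATF4 is controlled largely at translation, which these counts do not show. CEBPB (chr20:50190583-50192690), a partner of ATF4 and CHOP at C/EBP-ATF elements, stood at 114, 121, 118 and 119 CPM in siETV4 and at 129, 124, 123 and 99.0 CPM in siNC. All siETV4 libraries lay between siNC replicate 4 and the other siNC libraries. The log2 fold change was -0.01 (SE 0.10, edgeR adjusted p 0.972), from means of 118 ± 2.82 CPM and 119 ± 13.5 CPM (SD, n = 4 each). With RLE factors, library size alone or the GC-adjusted fit (0.16) the sign was positive. ATF3, a stress-induced repressor, averaged 18.0 ± 2.61 CPM in siETV4 and 18.8 ± 2.04 CPM in siNC (SD, n = 4 each), with a log2 fold change of -0.07 (SE 0.14). The pseudokinase TRIB3, which restrains ATF4 and CHOP, averaged 82.2 ± 5.27 CPM and 89.8 ± 13.2 CPM (-0.13, SE 0.12). PPP1R15A (GADD34), which recruits the phosphatase that reverses eIF2 alpha phosphorylation, averaged 83.1 ± 4.44 CPM and 82.2 ± 10.7 CPM (0.02, SE 0.11), and its siNC replicate 4 lay at 66.3 CPM, below the other siNC libraries (86.7 to 88.7 CPM). The median log2 fold change of the group was -0.01 in all 8 libraries and 0.16 in the GC-adjusted fit.

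Among the ATF4 targets of amino acid uptake and synthesis, the mitochondrial folate enzyme MTHFD2 and the serine synthesis enzyme PSAT1 were higher in all 4 siETV4 libraries than in any siNC library, and the other 6 genes overlapped. MTHFD2 (chr2:74198615-74217565), which oxidizes the one-carbon units that serine supplies, stood at 160.0, 128, 165 and 140.1 CPM in siETV4 and at 92.7, 104, 90.1 and 117 CPM in siNC. The lowest siETV4 library, replicate 2, lay above the highest siNC library, replicate 4. Means were 148 ± 17.0 CPM and 101 ± 12.2 CPM (SD, n = 4 each), and the log2 fold change was 0.55 (SE 0.11, edgeR adjusted p 0.101). DESeq2 called it higher (adjusted p 0.00268). The GC-adjusted fit also called it higher by edgeR, with a smaller log2 fold change of 0.34 (SE 0.07, adjusted p 0.0277), and the fit without siNC replicate 4 gave 0.63 (edgeR adjusted p 0.00601). On leaving out each library in turn, the edgeR adjusted p ran from 0.00601 to 0.402, and only the fit without siNC replicate 4 called it. With a term for replicate number added, the edgeR adjusted p was 0.369. Its transcript has a GC content of 41.4%, at which most genes had positive fold changes in all 8 libraries. PSAT1 (chr9:78297125-78330093) transfers the amino group in the middle step of serine synthesis. It stood at 637, 531, 595 and 600.0 CPM in siETV4 and at 459.8, 528, 468 and 482 CPM in siNC, so that siETV4 replicate 2 and siNC replicate 2 lay less than 3 CPM apart. The means of 591 ± 44.0 CPM and 485 ± 30.6 CPM (SD, n = 4 each) correspond to a log2 fold change of 0.29, with SE 0.09 and edgeR adjusted p 0.262. It was called without siNC replicate 4 (0.28, edgeR adjusted p 0.0464), but its GC-adjusted value was 0.09 (SE 0.08, edgeR adjusted p 0.61).

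The other enzymes of the serine and glycine route overlapped between the groups. PHGDH, the first enzyme of serine synthesis, averaged 315 ± 27.8 CPM in siETV4 and 334 ± 51.9 CPM in siNC (SD, n = 4 each), with a log2 fold change of -0.08 (SE 0.12). PSPH, the last enzyme, averaged 55.5 ± 3.32 CPM and 59.6 ± 6.69 CPM (-0.10, SE 0.11), and SHMT2, the mitochondrial enzyme that makes glycine from serine, 395 ± 35.2 CPM and 395 ± 55.6 CPM (0.00, SE 0.11). With the GC-adjusted fit these 3 stood at 0.05, -0.05 and 0.14, none past the threshold. The LAT1 transporter pair overlapped between the groups too. SLC7A5 (chr16:87830023-87869507) stood at 4895.1, 5076.2, 4374.7 and 5204.9 CPM in siETV4 and at 5449, 4995.6, 5220.0 and 4331.3 CPM in siNC, and the groups overlapped. Its log2 fold change was -0.03 (SE 0.10, edgeR adjusted p 0.899). SLC3A2 (chr11:62856109-62888860) stood at 1486.8, 1673.5, 1409.1 and 1483.4 CPM in siETV4 and at 1476.6, 1716.7, 1636.8 and 1295.6 CPM in siNC, and both its highest and its lowest library were siNC libraries. Its log2 fold change was -0.02 (SE 0.10, edgeR adjusted p 0.949). Both partners were lowest in replicate 3 within siETV4 and in replicate 4 within siNC. Library size alone and the GC-adjusted fit (0.11 and 0.12) turned both signs positive. ASNS, at under 1 CPM in every library, had a log2 fold change of 0.06 with an SE of 0.43, so only a large difference was detectable at this depth. The read-through gene CZ1P-ASNS had a log2 fold change of 0.05 (SE 0.18, edgeR adjusted p 0.914).

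**Figure D3:**
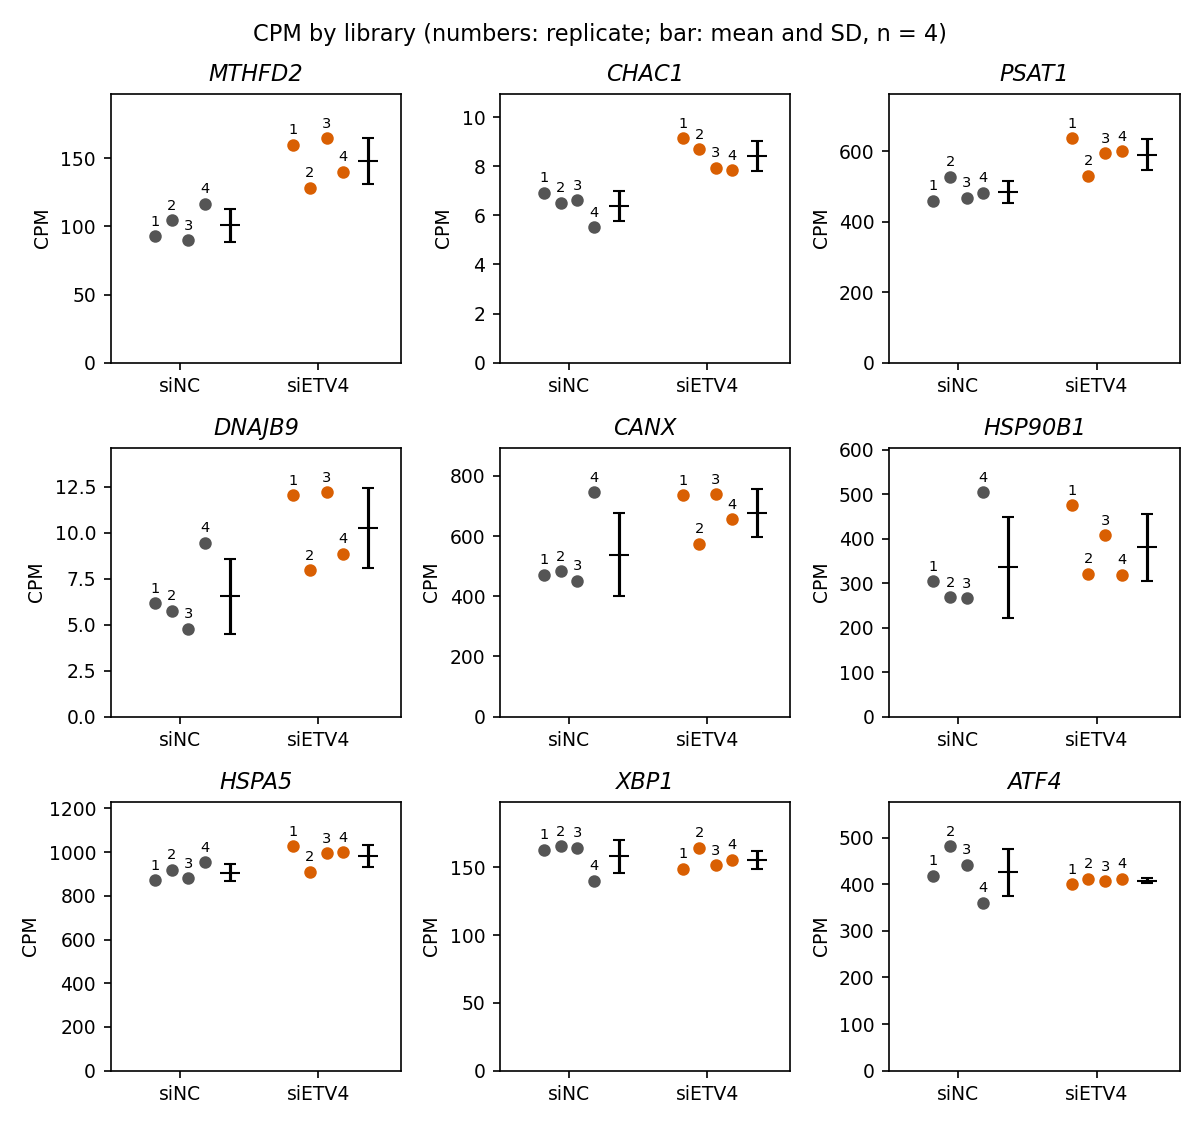
CPM of 9 genes in each library (y axis from 0), siNC in grey and siETV4 in orange; small numbers are replicates, and the bar beside each group is the mean with SD. MTHFD2, CHAC1 and PSAT1 do not overlap between groups, whereas siNC replicate 4 stands with the siETV4 libraries for DNAJB9 (9.47 CPM), CANX (745 CPM) and HSP90B1 (504 CPM) and below every other library for XBP1 (140.3 CPM) and ATF4 (360.1 CPM).

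Of the 10 ER chaperones and folding helpers, 6 had positive fold changes and 4 negative ones, with a median of 0.11 in all 8 libraries and 0.03 in the GC-adjusted fit. DNAJB9 (chr7:108569874-108574850), an XBP1 target that as a BiP co-chaperone keeps IRE1 inactive, had the largest fold change of the list in all 8 libraries. It stood at 12.0, 7.98, 12.2 and 8.86 CPM in siETV4 and at 6.17, 5.77, 4.78 and 9.47 CPM in siNC. Without siNC replicate 4 the groups would not overlap, and with it 2 siETV4 libraries lay below the highest siNC library. With means of 10.3 ± 2.17 CPM and 6.55 ± 2.03 CPM (SD, n = 4 each), the log2 fold change was 0.65 (SE 0.23, edgeR adjusted p 0.314). The GC-adjusted value was 0.44 (SE 0.15, edgeR adjusted p 0.188), and the value without siNC replicate 4 was 0.88 (edgeR adjusted p 0.0132). DNAJB9 overlaps genes counted on the opposite strand, THAP5 (mean 7.31 CPM) and PNPLA8 (18.8 CPM), to which the same limit on strand applies. CANX (chr5:179678656-179731641), the lectin chaperone calnexin, stood at 737, 574, 739.8 and 656 CPM in siETV4 and at 472, 483, 452 and 745 CPM in siNC. Its siNC replicate 4 was the highest of the 8 libraries and the other 3 siNC libraries were the lowest. The log2 fold change was 0.33 (SE 0.16, edgeR adjusted p 0.41), from means of 677 ± 78.5 CPM and 538 ± 139 CPM (SD, n = 4 each). Without siNC replicate 4 it was called higher (0.53, edgeR adjusted p 0.00882), and its GC-adjusted log2 fold change was 0.16 (edgeR adjusted p 0.275).

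The 2 chaperones with the highest FPKM had small fold changes of opposite sign. CALR (chr19:12938609-12944489) stood at 850.2, 922, 841 and 890.2 CPM in siETV4 and at 928, 1044.4, 1051.8 and 884 CPM in siNC. The groups overlapped through siNC replicate 4, which lay below siETV4 replicates 2 and 4, and the other siNC libraries lay above every siETV4 library. Means were 876 ± 37.5 CPM and 977 ± 83.9 CPM (SD, n = 4 each), and the log2 fold change was -0.16 (SE 0.09, edgeR adjusted p 0.464). HSPA5 (chr9:125234853-125241343), usually read as the gauge of the response, stood at 1026.5, 909.6, 995 and 999.7 CPM in siETV4 and at 871, 919, 882 and 954 CPM in siNC. Replicate 2 of siETV4 lay inside the siNC range and the other 3 above it. The means of 983 ± 50.7 CPM and 906 ± 38.0 CPM (SD, n = 4 each) correspond to a log2 fold change of 0.12, with SE 0.08 and edgeR adjusted p 0.539. In the GC-adjusted fit the values were -0.05 for CALR and 0.04 for HSPA5. HSP90B1 (GRP94), the ER member of the HSP90 family, showed the siNC replicate 4 pattern again: it lay at 503.8 CPM, the rest of siNC ran from 265.5 to 304.7 CPM, and the siETV4 libraries from 318.6 to 475 CPM. Its log2 fold change was 0.18 (SE 0.21) in all 8 libraries, 0.44 without siNC replicate 4 (edgeR adjusted p 0.0361) and -0.01 in the GC-adjusted fit. DNAJC3, a BiP co-chaperone also known as an inhibitor of PERK, averaged 31.9 ± 6.11 CPM and 23.7 ± 7.44 CPM (SD, n = 4 each), with a log2 fold change of 0.43 (SE 0.21), 0.68 without siNC replicate 4 (edgeR adjusted p 0.0139) and 0.24 in the GC-adjusted fit. The disulfide isomerases PDIA6 (0.10, SE 0.08) and PDIA4 (-0.09, SE 0.07), the BiP co-chaperone SDF2L1 (0.00, SE 0.14) and HYOU1, the nucleotide exchange factor of BiP (-0.17, SE 0.09), did not pass the threshold. The 6 members whose promoters held the ER stress response element did not share a direction: HSPA5, PDIA6, HSP90B1 and CANX lay between 0.10 and 0.33, and XBP1 and CALR at -0.03 and -0.16. Of the 3 with element II, HERPUD1 lay at 0.03, SDF2L1 at 0.00 and HYOU1 at -0.17. In the GC-adjusted fit HSPA5, PDIA6, HSP90B1 and CANX stood at 0.04, 0.02, -0.01 and 0.16, and XBP1 and CALR at -0.24 and -0.05. HERPUD1, SDF2L1 and HYOU1 stood at 0.01, 0.16 and -0.05 there.

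The 3 genes of ER-associated degradation had positive fold changes that did not pass the threshold. EDEM1 (chr3:5187707-5219958), a lectin that picks misfolded glycoproteins for removal, stood at 35.4, 26.1, 34.1 and 34.8 CPM in siETV4 and at 26.5, 24.5, 23.2 and 36.2 CPM in siNC. Replicate 2 of siETV4 stood among the lower siNC libraries, and replicate 4 of siNC was the highest of the 8 libraries. With means of 32.6 ± 4.38 CPM and 27.6 ± 5.89 CPM (SD, n = 4 each), the log2 fold change was 0.24 (SE 0.16, edgeR adjusted p 0.539). SEL1L (chr14:81471547-81533853), the scaffold of the HRD1 ubiquitin ligase, stood at 59.0, 36.7, 52.3 and 45.0 CPM in siETV4 and at 35.5, 30.6, 36.2 and 66.2 CPM in siNC, and siNC replicate 4 was its highest library. The log2 fold change was 0.20 (SE 0.23, edgeR adjusted p 0.723), from means of 48.3 ± 9.57 CPM and 42.1 ± 16.2 CPM (SD, n = 4 each). Both were called without siNC replicate 4 (EDEM1 0.40, edgeR adjusted p 0.0491; SEL1L 0.50, edgeR adjusted p 0.0348), and in the GC-adjusted fit they stood at 0.16 and 0.03. HERPUD1 (chr16:56932142-56944864), a membrane partner of the same ligase, whose promoter stretch above holds both an element II and a C/EBP-ATF core, stood at 51.6, 50.5, 41.9 and 51.1 CPM in siETV4 and at 52.8, 44.7, 46.6 and 47.3 CPM in siNC. The lowest library was siETV4 replicate 3 and the highest siNC replicate 1. Means were 48.8 ± 4.60 CPM and 47.9 ± 3.50 CPM (SD, n = 4 each), and the log2 fold change was 0.03 (SE 0.11, edgeR adjusted p 0.919).

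The fold changes of the members went with base composition, which the choice of the list did not use. Across the 32 members Spearman's rho between log2 fold change and GC content was -0.59, beside -0.55 across 12758 genes, and it was 0.06 in the GC-adjusted fit. These are descriptions across genes, which share the same 8 libraries. Among the 16 members below the median GC content of the genes tested (48.4%), 14 had positive fold changes, as did 74.7% of all genes below it, and their median was 0.22. Among the 16 at or above it, 4 were positive, as were 22.9% of all such genes, and their median was -0.05. All siETV4 libraries lay above all siNC libraries in 2 of the low GC members, MTHFD2 and PSAT1, beside 4.03% of all low GC genes. The same held for 1 high GC member, CHAC1, beside 1.36% of all high GC genes. All 10 members called without siNC replicate 4 were among the 16 of low GC content (ATF6, CANX, DNAJB9, DNAJC3, EDEM1, EIF2AK3, HSP90B1, MTHFD2, PSAT1 and SEL1L), a group in which 24.8% of all genes were called higher in that comparison, against 0.789% of genes of high GC content. Median deviations of the 16 low GC members from their mean log2 CPM were 0.28, -0.05, 0.23 and 0.10 in siETV4 replicates 1 to 4 and -0.20, -0.20, -0.23 and 0.03 in siNC replicates 1 to 4. So siETV4 replicates 1 and 3 stood highest and siNC replicates 1 to 3 lowest. When the 3 libraries with the most negative GC trend (siETV4 replicates 1 and 3 and siNC replicate 4) were left out together, an alternative chosen after seeing the data, edgeR called 0 members, beside 0.373% of all genes, and the smallest adjusted p was 0.0740, for MTHFD2, at a log2 fold change of 0.49. At an unadjusted p under 0.05 there were then 5 members (15.6%), beside 15.4% of all genes. Of the 2 members called in the GC-adjusted fit, CHAC1 had a larger log2 fold change there than in all 8 libraries (0.56 against 0.39) and MTHFD2 a smaller one (0.34 against 0.55). The part of GC content in the individual results was not tested beyond these fits.

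**Figure D4:**
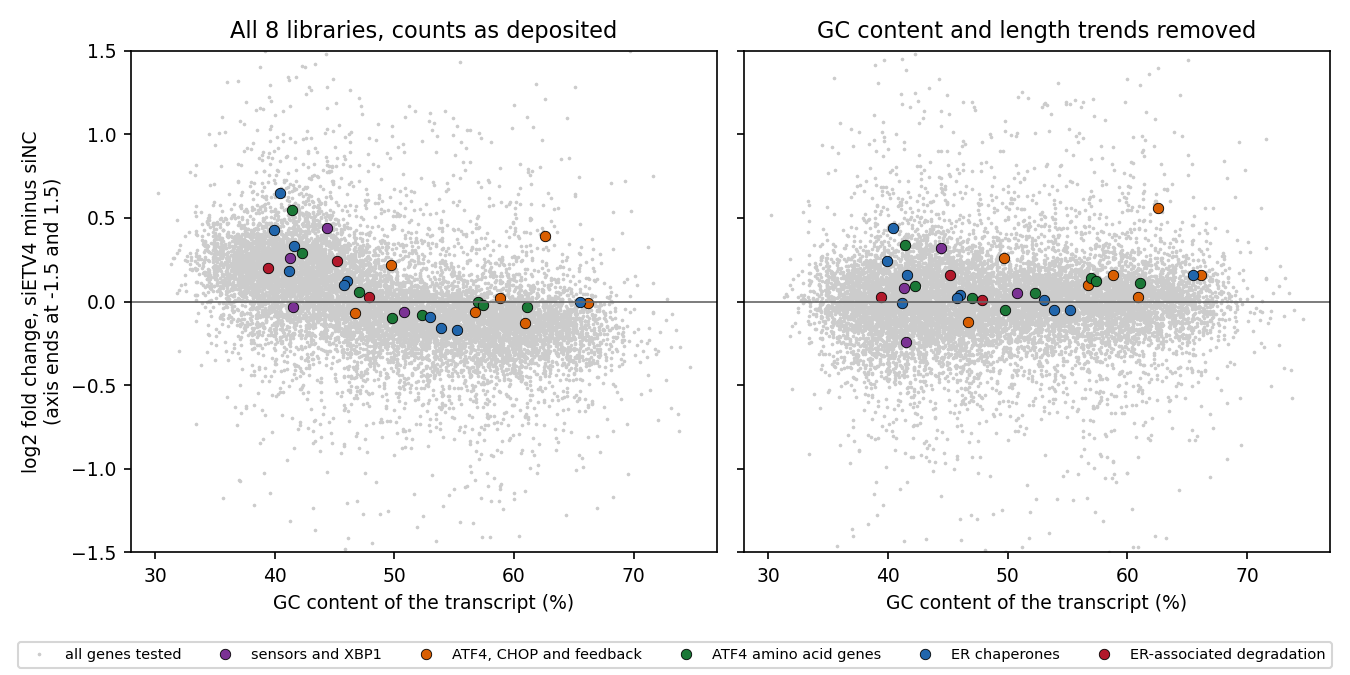
Log2 fold change (siETV4 minus siNC, y axis, cropped at the limits shown) against the GC content of the transcript in percent, for the 32 members (coloured by role) and all genes tested (grey), in all 8 libraries (left) and with GC content and length trends removed (right). On the left the members follow the falling grey cloud (rho -0.59 and -0.55), apart from CHAC1 at 62.6% and 0.39; on the right rho is 0.06 and CHAC1 (0.56), DNAJB9 (0.44) and MTHFD2 (0.34) stand highest.

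A further 110 genes of the same pathways, in 6 lists, give the setting. Of these, 103 passed the filter and 0 were called by edgeR in all 8 libraries, with 6 (5.83%) at an unadjusted p under 0.05, where 12.6% of all genes were, while DESeq2 called 1 lower. Their median log2 fold change was 0.04. All siETV4 libraries lay above all siNC libraries in 2 of the 103 and below them in 1. That holds for 2.62% and 3.93% of all genes tested. With the GC-adjusted fit edgeR called 1 higher and 0 lower, beside 0.643% and 0.784% of all genes. Leaving out siNC replicate 4 gave 21 higher and 1 lower, beside 12.0% and 4.88% of all genes. DDIT4 (REDD1), a stress-induced inhibitor of mTORC1 that ATF4 can induce, was the gene DESeq2 called (adjusted p 0.000647). It stood at 301, 306, 296 and 306 CPM in siETV4 and at 391, 460.2, 449 and 379.6 CPM in siNC, with every siETV4 library below every siNC library. The means of 302 ± 4.66 CPM and 420 ± 40.6 CPM (SD, n = 4 each) correspond to a log2 fold change of -0.47, with SE 0.09 and edgeR adjusted p 0.0579. Its direction was therefore opposite to that of CHAC1 and MTHFD2. The GC content of DDIT4 is 58.1%, and its GC-adjusted log2 fold change was -0.34 (SE 0.08, edgeR adjusted p 0.0641). Without siNC replicate 4 DDIT4 was called lower (-0.52, edgeR adjusted p 0.00569). STC2 (stanniocalcin 2), a secreted glycoprotein induced through ATF4, stood at 54.5, 44.6, 45.7 and 53.2 CPM in siETV4 and at 38.3, 44.2, 37.1 and 35.3 CPM in siNC, also without overlap. Its edgeR adjusted p was 0.29 in all 8 libraries (log2 fold change 0.35, SE 0.12) and 0.0366 in the GC-adjusted fit (0.44), where it was the gene called.

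The other lists held no gene past the threshold in all 8 libraries. The 12 aminoacyl-tRNA synthetases, which charge tRNAs and include many ATF4 targets, had a median log2 fold change of 0.12, with 10 above 0, and in the GC-adjusted fit a median of 0.17 with 12 of 12 above 0, where 51.0% of all genes were. In all 8 libraries 0 of them had an unadjusted edgeR p under 0.05, where 12.6% of all genes did. When siNC replicate 4, or the 3 libraries of most negative GC trend, were left out, 9 of 12 were above 0, with medians of 0.088 and 0.075. Of all genes, 48.5% and 49.0% were above 0 there. Without siNC replicate 4 edgeR called 5 of the 12 higher, beside 12.0% of all genes. In the GC-adjusted fit without siNC replicate 4, 12 of 12 were above 0 (median 0.21), beside 56.2% of all genes. That fit called 3 of them higher by edgeR, beside 3.78% of all genes. The smallest p values of that list were those of LARS1 (0.45, SE 0.21) and IARS1 (0.26, SE 0.13), the leucine and isoleucine enzymes, and its most abundant gene was the alanine enzyme AARS1 (-0.01, SE 0.09). LARS1 and IARS1 were called without siNC replicate 4 (LARS1 0.69, edgeR adjusted p 0.0124, and IARS1 0.39, edgeR adjusted p 0.0178), and their GC-adjusted values were 0.26 and 0.11, not past the threshold. The GC-adjusted fit without siNC replicate 4 called LARS1 higher (0.36, edgeR adjusted p 0.0389). Among 13 eIF2 kinases, phosphatase and exchange factor genes the median was 0.05, with the haem-regulated kinase EIF2AK1 at -0.23 (SE 0.09) and the amino acid sensor GCN2 (EIF2AK4) at 0.25 (SE 0.12). EIF2AK4 was among 6 of the 13 that edgeR called higher without siNC replicate 4 (0.34, edgeR adjusted p 0.0366), beside 12.0% of all genes. The GC-adjusted values were -0.29 for EIF2AK1 and 0.21 for EIF2AK4, neither past the threshold. With siNC replicate 4 left out of that fit, EIF2AK1 was called lower (-0.30, edgeR adjusted p 0.0283) and EIF2AK4 higher (0.30, edgeR adjusted p 0.0367). The exchange factor gene EIF2B2 was also called lower there. Of all genes, 3.78% were called higher and 2.81% lower. The catalytic phosphatase subunit PPP1CA stood at -0.12 (SE 0.11). In 23 other ER folding genes the median was 0.04, and the co-chaperone DNAJB11 (0.24, SE 0.09) and the prolyl isomerase FKBP14 (0.57, SE 0.22) had the smallest p. DNAJB11 lay higher in all siETV4 libraries, as 2.62% of all genes tested did, but its GC-adjusted value was -0.01. FKBP14 was called without siNC replicate 4 (0.81, edgeR adjusted p 0.013), and its GC-adjusted value was 0.35. The abundant isomerase PPIB stood at 0.00 (SE 0.12). In 19 other degradation genes the median was 0.03, with the lectin ERLEC1 at 0.28 (SE 0.16), the VCP adaptor FAF2 at 0.15 (SE 0.10) and the extraction ATPase VCP at -0.11 (SE 0.09). ERLEC1 was called without siNC replicate 4 (0.43, edgeR adjusted p 0.0385), and its GC-adjusted value was 0.08. Among 12 other ER stress transducers the median was -0.07, with ATF6B, the close relative of ATF6, at -0.21 (SE 0.10) and TMBIM6, a membrane protein that dampens IRE1, at -0.14 (SE 0.09). The 7 genes that did not pass the filter on low counts were GDF15, FGF21, CBS, ALDH1L2, FKBP2, DERL3 and CREB3L1.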

How the data were processed

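Total RNA from 8 HaCaT cultures, 4 siETV4 and 4 siNC, was sequenced. The sample titles give group and replicate number. The authors deposited raw read counts and FPKM values for 34415 gene symbols in 8 library columns. Per the submitters' processing notes the build is hg38, and R 3.2.0 is named. The aligner, counting tool, annotation and use of strand were not given in the sources used here. The deposited FPKM equalled the count scaled by library total and by 1 length per gene, within a relative tolerance of 1e-06, for 18427 of 18428 genes with 2 or more values, and was used for levels. Totals ran from 35057643 to 41657753, and 1 CPM was 40.1 counts at the mean depth. Pairs of libraries differed beyond sampling noise (chi-square per degree of freedom at least 8.63).

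Counts were tested in R 4.3.3 with edgeR 4.0.16 (filterByExpr with a minimum count of 10, TMM factors, quasi-likelihood test, siRNA as the only term), with Benjamini-Hochberg adjustment over the 13572 genes kept and a threshold of 0.05. Log2 fold changes are siETV4 minus siNC. Alternatives were DESeq2 1.42.0, limma-voom and limma-trend on log2(FPKM + 1) or log2(FPKM + 0.1) (limma 3.58.1), RLE factors, library size alone, other filters, a threshold of 0.1, a replicate block, leaving out each library in turn, and per-library splines (5 degrees of freedom) on GC content and length, which had a value for 94.0% of genes and all 32 members. GC content came from GENCODE v29 transcripts. Gene positions and promoters came from RefSeq (GRCh38.p14). The tests were also run on simulated counts. A GC trend, where simulated, was the same in every siNC library, unlike in the data. That run is therefore no check on how the trends seen here affect the results.

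The members and the lists were chosen with earlier results of these data known. Values in all 8 libraries are given for the 2 members of each group with the smallest p, the 2 with the highest FPKM and every member past the threshold in all 8 libraries or in the GC-adjusted fit. From each list of other genes, those past the threshold are named, or else the 2 with the smallest p and the most abundant.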

Additional observations from a re-analysis of the deposited data

Results flagged for a closer look

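In each of 64 groups (the 4 libraries of 1 siRNA for 1 member), the highest or lowest library was compared with the other 3 by its gap relative to the range of the group. In 9 groups 1 library stood apart. All members share the same libraries, so the groups are not independent. The rate of about 1 group in 20, which holds for independent groups, therefore gives no measure of chance here. Replicate 4 of siNC was the library that stood apart in 7 of the 9 groups.

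It stood high for 5 members. EIF2AK3 was at 12.5 CPM there, against 6.27 to 7.02 CPM in the other siNC libraries, and DNAJC3 at 34.8 CPM against 19.5 to 20.4 CPM. HSP90B1 was at 503.8 CPM against 265.5 to 304.7 CPM, CANX at 745 CPM against 452 to 483 CPM, and SEL1L at 66.2 CPM against 30.6 to 36.2 CPM. It stood low for XBP1, at 140.3 CPM against 163 to 166 CPM, and for PPP1R15A, at 66.3 CPM against 86.7 to 88.7 CPM. The GC content of the first 5 ran from 39.4% (SEL1L) to 44.4% (EIF2AK3), and was 41.5% in XBP1 and 58.8% in PPP1R15A.

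In the siETV4 group, HERPUD1 was low in replicate 3, at 41.9 CPM against 50.5 to 51.6 CPM, and EDEM1 was low in replicate 2, at 26.1 CPM against 34.1 to 35.4 CPM.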

How the results depend on the processing

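The number of genes called, 32 in all 8 libraries, was 223 with DESeq2, 182 in the GC-adjusted fit, 92 in that fit with the replicate block, 850 in that fit without siNC replicate 4, 59 with either FPKM pseudocount, 54 without a filter, 60 at a threshold of 0.1, and 52 without the 3 libraries of most negative GC trend (chosen after seeing the data). The replicate block alone left 4 genes and 0 members. Deviations of same-numbered libraries correlated at -0.09, 0.30, -0.14 and -0.19. These deviations also carry the GC trend of each library, so whether the numbers pair the samples cannot be decided from them. Leaving out 1 library gave 9 to 2327 genes, the highest without siNC replicate 4. Members called, 0 in all 8 libraries, were 1 with DESeq2, 2 in the GC-adjusted fit, 0 in that fit with the replicate block (edgeR adjusted p 0.0858 for MTHFD2 and 0.110 for CHAC1), 6 in it without siNC replicate 4, 1 without a filter, and 0 to 10 on leaving out 1 library. Other pathway genes called, 0 in all 8 libraries, were 1 with DESeq2, in the GC-adjusted fit, with either FPKM pseudocount, without a filter and at a threshold of 0.1, 10 in the GC-adjusted fit without siNC replicate 4, and 0 to 22 on leaving out 1 library. The members' median, 0.022, was 0.085 in the GC-adjusted fit, 0.093 with the replicate block added, 0.113 in it without siNC replicate 4, and -0.045 to 0.064 on leaving out 1 library. The cause was not tested.

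Of 770 values of 35 named genes under alternatives, 671 kept their direction and side of the threshold, 34 newly passed it and 65 changed sign. With library size alone, log2(FPKM + 1) with or without a filter, or log2(FPKM + 0.1) with a filter, the log2 fold change was 0.02 for XBP1, 0.04 for CEBPB, 0.01 for SLC7A5, 0.03 for SLC3A2 and 0.04 for AARS1. With DESeq2 and RLE factors CEBPB stood at 0.0045 and AARS1 at 0.0048. In the GC-adjusted fit, with or without the replicate block, CEBPB stood at 0.16, ATF4 at 0.10, SLC7A5 at 0.11, SLC3A2 at 0.12, PPP1CA at 0.01, AARS1 at 0.11 and DNAJB11, 0.24 in all 8 libraries, at -0.01 (-0.02 with the block). Without siNC replicate 4 in that fit they stood at 0.21, 0.07, 0.11, 0.14, 0.06, 0.12 and -0.09, and CALR at 0.01. PPIB was at -0.04 without the 3 libraries. On leaving out 1 library CEBPB ran from -0.09 to 0.03, ATF4 from -0.13 to 0.0028, SLC7A5 from -0.10 to 0.02, SLC3A2 from -0.09 to 0.04, HERPUD1 from -0.0032 to 0.09, AARS1 from -0.07 to 0.04 and PPIB from -0.08 to 0.08.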
